A study of Mus musculus with 6 samples.

Results

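The 10 genes described here encode proteins that epidermis secretes against microbes: Lcn2, Slpi, Camp, Pglyrp1, Pglyrp3, Defb1, Defb6, Defb14, Saa1 and Saa3. They were found on the array by matching each probe's RefSeq accession to a mouse gene symbol, which gave 12 of 41174 probes and 10 of 18217 named genes. Defb1 and Saa1 had 2 probes each and the other members 1. The samples were epidermis of newborn mice at postnatal day 0, of a mixed strain background. The 3 AhRCA mice carried a transgene in which the keratin 14 promoter, active in basal keratinocytes, drives a permanently active aryl hydrocarbon receptor (AhR), a transcription factor otherwise switched on by dioxins and other ligands. The 3 wild-type (WT) mice were littermates without it, 1 for each AhRCA mouse, and samples with the same replicate number were taken as a litter pair. Each sample had its own 1-colour Agilent array, and the comparison asks which transcripts differ when AhR is permanently active in keratinocytes.

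Antimicrobial proteins of skin belong to several families. Beta-defensins and the cathelicidin are short cationic peptides that damage microbial membranes, peptidoglycan recognition proteins bind bacterial cell wall, lipocalin 2 withholds iron by binding bacterial siderophores, and serum amyloid A proteins are acute-phase proteins made in inflammation. Keratinocytes make some of them constantly and others only after wounding, infection or cytokines of the interleukin 1, 17 and 22 families, whereas cathelicidin, lipocalin 2 and Pglyrp1 are also stored in the granules of neutrophils.

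A spot counts as well above background by the scanner software's test against its local background, and 56.2% to 61.3% of spots did so per array. The number of arrays, 3 a group, limits the precision. AhRCA arrays had the transgene's known signature: Cyp1b1, a xenobiotic-metabolizing enzyme, rose by 5.34 ± 0.14 on the log2 scale (SE, n = 3 each, limma adjusted p = 5.62e-05) and Cyp1a1 by 7.07 ± 0.58. All 8 basal and all 10 differentiated keratinocyte markers on the array were above background on all 6 arrays, whereas 6 of 7 endothelial markers were above it on none. Of 8 fibroblast markers 7 were above background on all 6 arrays, with a summed level of 33.1 to 41.1 times the array's 75th percentile in WT and 39.5 to 41.6 in AhRCA. Pairs 1 and 2 lay on slide 1 and pair 3 on slide 2. Xist, the transcript of the inactive X chromosome, had normalised values between 4.43 and 4.66 in pairs 1 and 2 and of -4.20 and -7.14 in pair 3, so that slide, pair 3 and sex coincided.

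In AhRCA epidermis the beta-defensin Defb14 and the peptidoglycan recognition protein Pglyrp3 had lower values than in the WT littermate in every pair, and so did the serum amyloid Saa1. Saa3 was above background on 2 WT arrays and on no AhRCA array. For the protease inhibitor Slpi, the constitutive beta-defensin Defb1 and the beta-defensin Defb6 the 95% interval of the difference included 0. Lcn2 was measurable on 1 WT array, and Camp and Pglyrp1 on none of the 6. Of the 6 members that could be tested, 0 passed an adjusted p under 0.05 (limma with Benjamini-Hochberg adjustment over 12824 genes), where 2.18% of all genes tested passed (1.65% were lower and 0.53% higher in AhRCA). At an unadjusted p under 0.05 there were 3 (Defb14, Saa1 and Pglyrp3), all lower in AhRCA, where the share of all genes was 12.2% in either direction and 7.57% for lower. In the paired fit, which has the litter pair as a block and so compares each AhRCA mouse with its own littermate, 2 of the 6 fell, Defb14 and Pglyrp3. The paired fit called 3.88% of all genes, 2.81% as lower and 1.07% as higher. With the slide as a block 0 of the 6 passed, where 4.2% of all genes did.

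The paired fit also called markers of other cell types that had not passed without the block. Higher in AhRCA were the macrophage marker Aif1 (log2 fold change 0.83, adjusted p = 0.0217) and the fibroblast marker Sparc (1.13, 0.0157). Lower were Lpl of the adipocyte list (-0.82, 0.0225), Myh8 of the skeletal muscle list (-1.23, 0.0444) and Slc4a1 of the erythroid list (-1.43, 0.0461). The fibroblast list did not move together, as 4 of its 7 tested markers had positive and 3 negative log2 fold changes. Col1a2 of that list had -1.19 and did not pass in the paired fit (0.0636). Krt15, a basal keratinocyte keratin, passed without the block (-0.72, 0.0460) and not with it (0.0534, all from limma). Of the 8 basal keratinocyte markers tested 6 had positive and 2 negative log2 fold changes, with a median of 0.1. The summed adipocyte level was 1.76 to 2.63 in WT and 0.866 to 1.92 in AhRCA, and that of muscle 1.39 to 1.58 and 1.10 to 1.39. The erythroid sum was 1.85 to 3.40 in WT and 1.34 to 3.43 in AhRCA. The part of these cell types in the Defb14, Pglyrp3 and Defb6 values was not tested.

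**Figure D1:**
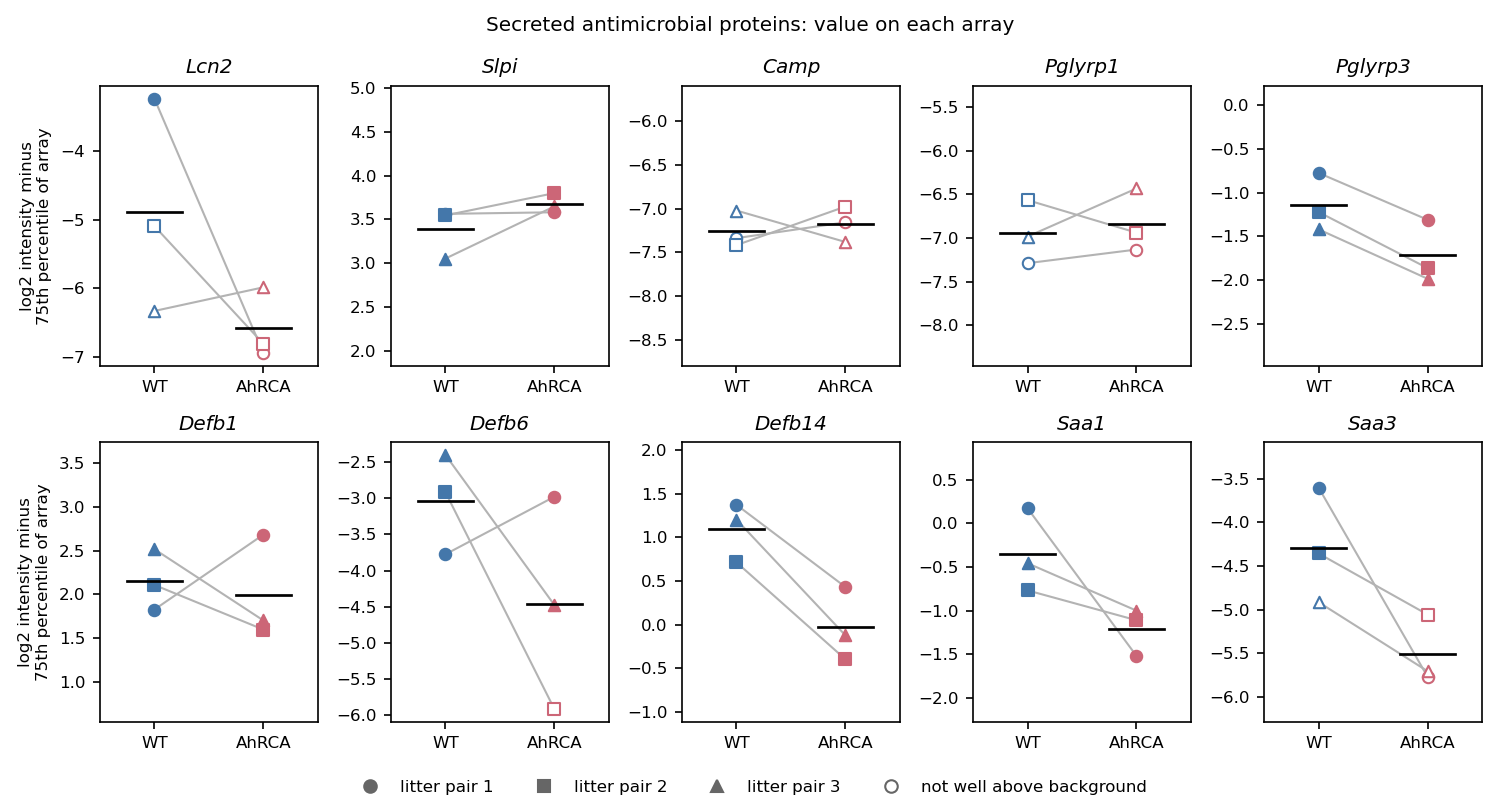
Value of each of the 10 members on each of the 6 arrays, as log2 processed intensity minus the log2 75th percentile of the array (vertical axis, a range of its own in each panel), for WT and AhRCA. Grey lines join littermates, black bars are group means, and open symbols mark arrays on which the probe was not well above background; all 3 lines fall for Pglyrp3, Defb14 and Saa1.

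Levels are given below as log2 processed intensity relative to each array's 75th percentile, so that 0 is the level of that percentile; they compare arrays for 1 probe and not 1 gene with another. In bulk epidermis a lower value can come from fewer cells that make the transcript or from less of it in each cell, and these cannot be told apart here.

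Defb14, the mouse counterpart of the inducible human beta-defensin 3, was well above background on all 6 arrays. Its level was 1.37, 0.71 and 1.20 in WT 1, 2 and 3, and 0.43, -0.40 and -0.12 in AhRCA 1, 2 and 3. The lowest WT array lay above the highest AhRCA array. The log2 fold change was -1.12 ± 0.26 (SE, n = 3 per group), or 2.18-fold lower, with a 95% interval from -1.75 to -0.50. Its adjusted p was 0.102 (limma), and 0.0169 in the paired fit, the lowest over 16 alternatives, which ran up to 0.277. The SE was 0.11 in the paired fit. Pairs 1, 2 and 3 differed by -0.94, -1.11 and -1.32, so that each pair, on either slide and of either sex, had the same direction. With each of the 8 kept member probes tested on its own, 0 passed without the block, where 1.1% of all probes kept did. In the paired fit over probes 1 of the 8 passed, that of Defb14 (adjusted p = 0.0312), where 1.96% of all did.

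Defb6, a beta-defensin first described from skeletal muscle, had the widest spread of the tested members. It stood at -3.77, -2.92 and -2.40 in the WT mice and at -2.98, -5.91 and -4.48 in the AhRCA mice, and in AhRCA 2 it was not well above background. The groups overlapped, because AhRCA 1 lay within the WT range. Pair 1 differed by 0.80 while pairs 2 and 3 differed by -3.0 and -2.07. The log2 fold change of -1.42 ± 0.73 did not pass (adjusted p = 0.574, limma; 95% interval -3.18 to 0.33). Its value ranged from -2.16 without AhRCA 1 to -0.50 with another background correction (normexp), over the 15 alternatives that gave one.

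Defb1, a defensin that epithelia make without stimulation, was read by 2 probes that followed each other. Its brighter probe had 1.83, 2.11 and 2.52 in WT 1 to 3 and 2.68, 1.6 and 1.70 in AhRCA 1 to 3. AhRCA 1 was the highest array and AhRCA 2 the lowest, and the pairs differed by 0.86, -0.51 and -0.82. The log2 fold changes were -0.16 ± 0.32 for this probe (95% interval -0.93 to 0.62, adjusted p = 0.999, limma) and -0.14 ± 0.31 for the other. The sign turned on slide 1 alone (0.17), without WT 3 (0.03) and without AhRCA 2 (0.04), so no direction can be given. Among the 3 defensin genes, Defb14 was thus lower in all 3 pairs, and Defb6 and Defb1 in pairs 2 and 3 only.

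Camp encodes the precursor of the cathelicidin peptide CRAMP. Its processed intensity was between 3.93 and 5.50 on all 6 arrays, below the dimmest spots that counted as well above background, which had 16.6 to 25.5 units. No level and no fold change can be given for it.

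Slpi, secretory leukocyte protease inhibitor, protects epithelium from neutrophil elastase and also kills bacteria. It had processed intensities between 5928 and 9460, and its level was 3.56, 3.55 and 3.05 in WT and 3.58, 3.8 and 3.65 in AhRCA. All AhRCA arrays lay above all WT arrays, with pair differences of 0.02, 0.25 and 0.60. Of all genes tested 7.52% were higher without overlap and 19.7% were higher in all 3 pairs. Its difference of 0.29 ± 0.17 on the log2 scale did not pass (adjusted p = 0.662, limma; 95% interval -0.11 to 0.69). Slpi was the only tested member with a positive value, which ranged from 0.12 (without WT 3) to 0.38 over 16 alternatives.

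Pglyrp3, a peptidoglycan recognition protein of skin and mucosa, was well above background throughout. WT 1, 2 and 3 had -0.77, -1.22 and -1.42, and AhRCA 1, 2 and 3 had -1.31, -1.86 and -1.98. The groups overlapped, since AhRCA 1 lay between WT 2 and WT 3, but each AhRCA mouse lay below its own littermate by a similar amount: the pairs differed by -0.54, -0.64 and -0.57. The difference of -0.58 on the log2 scale (95% interval -1.15 to -0.01) had an SE of 0.24 without the block and 0.08 with it, and the adjusted p went from 0.397 to 0.0380 (limma). The range over the 16 alternatives was 0.0380 to 0.769, and in the paired fit over single probes it missed the threshold (adjusted p = 0.0632). Pglyrp1, the family member of neutrophil granules, had intensities between 4.65 and 8.72 and was not well above background on any array.

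**Figure D2:**
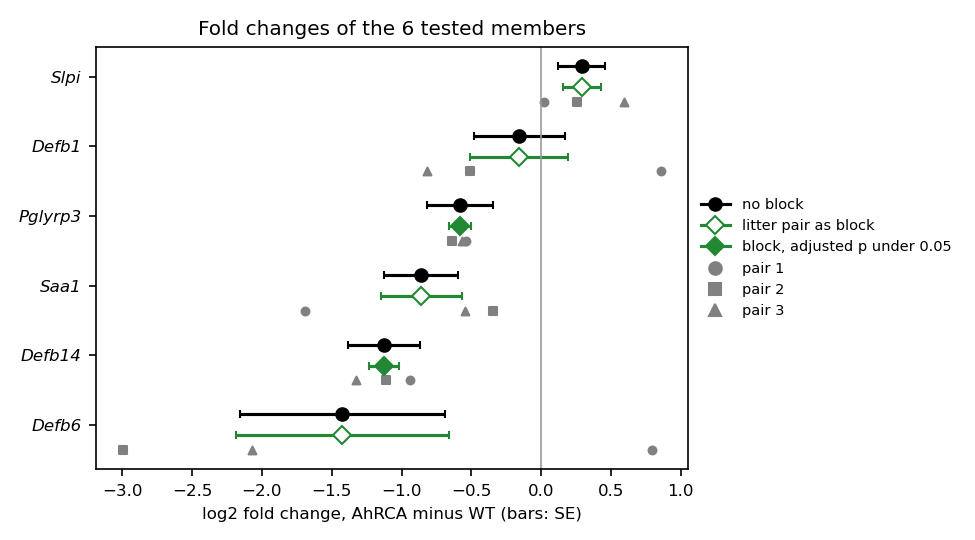
Log2 fold change (AhRCA minus WT) of the 6 tested members with its standard error, without a block (black circles) and in the paired fit (green diamonds, filled where the adjusted p is under 0.05); small grey symbols are the differences of the 3 litter pairs. The pairs of Pglyrp3 lie between -0.64 and -0.54 and those of Defb14 between -1.32 and -0.94, whereas pair 1 of Defb6 and Defb1 lies on the other side of 0 from pairs 2 and 3.

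Lcn2, lipocalin 2, is among the keratinocyte genes most readily induced by interleukin 1 and interleukin 17. Its processed intensity was 77.4, 19.7 and 8.87 in WT 1, 2 and 3 and 5.55, 5.58 and 11.9 in AhRCA 1, 2 and 3. Only WT 1 was well above background. AhRCA 3 lay above its littermate. In the fit without a filter on dim probes the log2 fold change was -1.70 ± 0.78 and did not pass (adjusted p = 0.624, limma). Since 5 of the 6 signals were not well above background, its size is not settled: it was -0.87 without WT 1, -0.43 with normexp background correction and -2.72 on slide 1 alone.

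Saa1 and Saa3 are acute-phase genes of a cluster on chromosome 7, in which the RefSeq order is Saal1, Saa3, Saa4, Saa1, Saa2 and Hps5. The 250 bases before the start of Saa1, Saa2 and Saa3 are shown because Saa1 and Saa2 had lower values on every AhRCA array than on any WT array, and Saa3 was above background on WT arrays only. They are RefSeq sequences of build GRCm38.p6, at chr7:46742981-46743230 (minus strand), chr7:46751583-46751832 (plus strand) and chr7:46715677-46715926 (minus strand). Each reads 5′ to 3′ towards the gene, and capitals mark matches to TTGCNNAA, a motif of the C/EBP factors that drive acute-phase genes, on either strand.
Saa1: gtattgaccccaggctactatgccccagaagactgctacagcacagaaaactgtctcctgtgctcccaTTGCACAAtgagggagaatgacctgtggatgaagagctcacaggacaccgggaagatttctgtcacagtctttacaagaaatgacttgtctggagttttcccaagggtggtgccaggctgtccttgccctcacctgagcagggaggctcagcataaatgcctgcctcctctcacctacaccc
Saa2: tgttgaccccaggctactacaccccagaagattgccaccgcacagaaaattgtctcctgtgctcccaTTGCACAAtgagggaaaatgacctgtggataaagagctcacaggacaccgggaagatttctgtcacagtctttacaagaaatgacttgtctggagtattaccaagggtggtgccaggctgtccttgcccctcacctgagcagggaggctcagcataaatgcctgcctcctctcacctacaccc
Saa3: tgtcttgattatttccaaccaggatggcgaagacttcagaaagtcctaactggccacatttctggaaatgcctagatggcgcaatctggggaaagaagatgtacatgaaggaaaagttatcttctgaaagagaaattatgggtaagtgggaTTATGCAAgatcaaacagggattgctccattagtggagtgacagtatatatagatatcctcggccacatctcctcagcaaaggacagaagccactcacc

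The Saa1 and Saa2 windows were identical at 94.8% of 251 aligned positions, and Saa3 matched Saa1 at 52.5%. Because Saa1 and Saa2 are near-identical copies, the values of their probes are uncertain as to which copy they read. The RefSeq table held windows of 300 bases, 50 of them after the start, for 7 of the 10 members: Lcn2, Slpi, Camp, Pglyrp1, Defb6, Saa1 and Saa3. The core of the AhR binding motif, GCGTG on either strand, matched in 0 of the 7, and in 32.4% of all 32851 windows of that length. The extended form TNGCGTG matched in 0 of the 7 and in 5.07% of all windows. The NF-kappaB consensus motif was found in Pglyrp1 only and in 1.63% of all windows. TTGCNNAA, chosen after the sequences were seen, was found in Lcn2, Slpi, Defb6, Saa1 and Saa3 and in 10.8% of all windows; matches are letters in a window and say nothing of binding.

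The brighter Saa1 probe stood at 0.17, -0.77 and -0.46 in WT 1, 2 and 3 and at -1.52, -1.11 and -1.0 in AhRCA 1, 2 and 3. The groups did not overlap, although WT 2 and AhRCA 3 lay close together. The log2 fold change was -0.86 ± 0.26 (1.81-fold lower, adjusted p = 0.215, limma; 95% interval -1.49 to -0.23), with pair differences of -1.69, -0.34 and -0.54. The other probe of Saa1 had -1.02, -2.16 and -2.47 in WT and -3.69, -3.10 and -3.41 in AhRCA, and a larger log2 fold change of -1.52 ± 0.38 (adjusted p = 0.172 over all probes kept). In the paired fit the brighter probe had an adjusted p of 0.234. Over 16 alternatives Saa1 had 0.137 to 0.522, the lowest with the mean of its 2 probes in place of the brighter one. Pair 1 gave the largest difference, and without WT 1 the log2 fold change was -0.60.

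Saa3, the serum amyloid that tissues outside the liver make, had intensities of 59.8, 32.8 and 23.7 in WT and of 12.6, 18.9 and 14.5 in AhRCA. It was well above background in WT 1 and WT 2 and on no AhRCA array. In the fit without a filter on dim probes the log2 fold change was -1.22 ± 0.37 and did not pass (adjusted p = 0.322, limma). Its size depended on how background was treated, with -0.25 under normexp, and was -0.87 without WT 1. Saa2, chosen after its values were seen, had 0.02, -1.17 and -1.37 in WT and -2.84, -2.11 and -2.74 in AhRCA (log2 fold change -1.72 ± 0.39, adjusted p = 0.0969 in limma; 0.0772 to 0.269 over the alternatives). Saa4 was not well above background on any array, and the genes that flank the cluster had -0.05 ± 0.10 (Saal1) and 0.05 ± 0.15 (Hps5).

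Among the 6 tested members, 2 were lower in AhRCA without overlap of the groups (Defb14 and Saa1), where the share of all genes tested was 8.84%. Lower in all 3 litter pairs were 3 of 6, where the share was 20.1%. The median log2 fold change of the 6 was -0.72, and that of all 12824 genes was 0.00129. The 4 members left out of these counts did not pass the filter on dim probes, and 2 of them, Lcn2 and Saa3, were above background in WT only. In the fit without that filter 0 of the 4 passed, where 0.725% of all 18217 genes did.

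WT 1 carried the highest value of all 6 arrays for 3 of the 6 tested members, Pglyrp3, Defb14 and Saa1, while 17.0% of all genes tested were highest on that array. S100a9, an alarmin subunit of stressed keratinocytes and neutrophils, was highest there too, with 4.49 against 1.89 to 3.27 on the other arrays, and so was its partner S100a8, with 0.51 against -1.73 to -0.92. Both belong to the neutrophil list, whose other 3 tested markers did not share one highest array. Hdc, the histamine-forming enzyme, was highest on WT 1 (-2.0), Stfa2, a stefin, on WT 3 (6.32, with 5.69 on WT 1), and Chil3, a chitinase-like protein, on AhRCA 3 (0.39, with -2.31 on WT 1). Mmp9, Cxcr2 and Mpo of the list did not pass the filter on dim probes. Mmp9 and Cxcr2 were well above background on 1 WT array and no AhRCA array. Both were highest on WT 1, with -3.21 against -7.17 to -5.15 elsewhere and -4.96 against -5.82 to -5.19. Mpo was highest on WT 3 (-4.35, with -5.16 on WT 1). The 2 alarmin genes were chosen after their values were seen. Without WT 1 the log2 fold changes of Defb14 and Pglyrp3 were -0.99 and -0.40. Of 17 neutrophil markers on the array 9 were above background on no array, among them the granule genes Ngp, Ltf and Elane. The summed level of the list ran from 61.0 to 84.9 in WT, with 76.1 in WT 1, and from 53.5 to 77.2 in AhRCA. Most of this sum is Stfa2, at 5.43 to 6.32 on the log2 scale, and on WT 1 also S100a9. It is therefore no measure of neutrophil number. The part of neutrophils in the values of WT 1 was not tested.

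**Figure D3:**
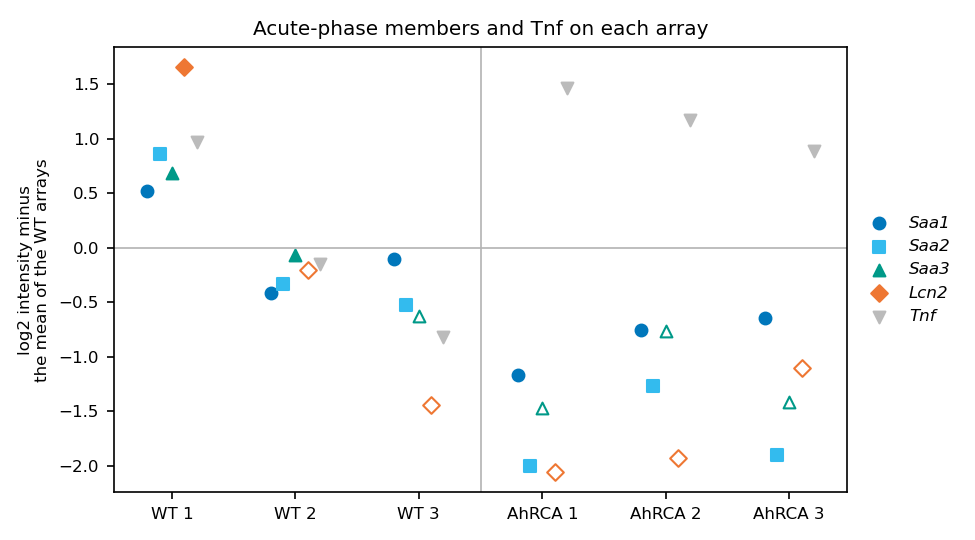
Level of Saa1, Saa2, Saa3, Lcn2 and Tnf on each array, as log2 intensity minus the mean of the 3 WT arrays for that gene (vertical axis). Open symbols mark arrays on which the probe was not well above background. Saa1 and Saa2 are lower on every AhRCA array than on any WT array, Saa3 is open on all AhRCA arrays, Lcn2 is filled on WT 1 only, and Tnf is above its WT mean on all AhRCA arrays.

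Other antimicrobial proteins of skin were tested in 18 genes, of which 1 rose and 1 fell (2.18% of all genes passed), with 7 at an unadjusted p under 0.05 (12.2% of all genes) and a median of -0.01. Lyz1, a lysozyme that digests bacterial cell wall, rose from -3.23, -3.27 and -3.23 in WT to -1.90, -2.05 and -1.72 in AhRCA. Its log2 fold change was 1.35 ± 0.12 (adjusted p = 0.00546, limma) and it passed under all 16 alternatives (0.00463 to 0.0396). Lyz1 has a near-identical copy, Lyz2, whose own probe stayed below background on all 6 arrays, so which copy was read is uncertain. The dim values of the Lyz2 probe were also higher on every AhRCA array than on any WT array, with pair differences of 1.43, 1.25 and 1.63. Macrophages are rich in lysozyme, and of 8 macrophage markers tested 2 rose, where 0.53% of all genes did. They were C1qa (0.86 ± 0.155, adjusted p = 0.0480 in limma), just inside the threshold, and Adgre1 (0.67 ± 0.105, 0.0321). The summed level of the list was 3.88 to 4.27 in WT and 5.52 to 6.59 in AhRCA. The part of macrophages in the Lyz1 value was not tested.

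Wfdc12, a whey acidic protein of the same family as Slpi, fell from -1.08, -0.78 and -1.27 to -2.96, -2.07 and -2.73. This difference of -1.54 ± 0.25 on the log2 scale passed (adjusted p = 0.0357, limma), with 0.0157 to 0.132 over the alternatives; it lost its call when any 1 array except AhRCA 2 was left out. Its relatives Wfdc5, Wfdc2 and Wfdc21 had -0.10 ± 0.15, 0.32 ± 0.26 and -0.465 ± 0.157, and none of these 3 passed. S100a7a, the psoriasin-like S100 protein, was chosen after its values were seen. It went from -3.43, -2.85 and -2.37 in WT to -5.91, -5.29 and -4.27 in AhRCA, where only 1 of 3 arrays was well above background. The log2 fold change of -2.28 ± 0.45 missed the threshold (adjusted p = 0.0644) and passed in the paired fit (0.0109; 0.0109 to 0.213 over the alternatives). With normexp background correction it was -0.88. The chemokine peptide Cxcl14 had 0.335 ± 0.115 and Ccl20 0.555 ± 0.219, and neither passed (adjusted p = 0.281 and 0.370).

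Proteases that cut antimicrobial precursors, and their inhibitors, were tested in 7 genes, of which 1 fell and 0 rose (2.18% of all genes passed), with 1 at an unadjusted p under 0.05 (12.2% of all genes) and a median of -0.07. Klk6, a kallikrein-related peptidase, fell from 1.27, 1.51 and 1.28 to 0.42, -0.13 and -0.02, a difference of -1.26 ± 0.17 on the log2 scale (adjusted p = 0.0203, limma; 0.0175 to 0.102 over the alternatives). It lost its call when any 1 array except AhRCA 1 was left out. Klk5 and Klk7, the kallikreins that process cathelicidin, had -0.23 ± 0.16 and -0.07 ± 0.13, and their inhibitor Spink5 0.04 ± 0.15. The neutrophil protease Elane was not well above background on any array.

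Receptors and binding partners gave 0 calls in 11 tested genes (limma; 2.18% of all genes passed), with 3 at an unadjusted p under 0.05 (12.2% of all genes) and a median of -0.26. P2rx7, an ATP-gated channel through which cathelicidin can act, had 0.67, 1.18 and 0.57 in WT and -0.08, -0.17 and -0.18 in AhRCA. Its log2 fold change of -0.95 ± 0.18 missed the threshold (adjusted p = 0.0535, limma; 0.0422 to 0.189 over the alternatives). Cd36, a scavenger receptor that binds serum amyloid A, had -0.95 ± 0.30 (adjusted p = 0.235), and -0.37 with normexp. The formyl peptide receptors Fpr1 and Fpr2 were not well above background on any array.

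The cytokines and receptors that induce these proteins had 0 calls in 17 tested genes (limma; 2.18% of all genes passed), with 4 at an unadjusted p under 0.05 (12.2% of all genes) and a median of 0.20. Il17a, Il17c, Il17f, Il22 and Ifng were not well above background on any array. Tnf was at -1.72, -2.83 and -3.50 in WT and -1.22, -1.52 and -1.79 in AhRCA, a log2 fold change of 1.17 ± 0.43 that did not pass (adjusted p = 0.328) although it was higher in 3 of 3 pairs. Il6, well above background on 1 of 3 WT arrays and on 3 of 3 AhRCA arrays, had 0.59 ± 0.57 (adjusted p = 0.925). Its value was 0.17 under normexp and 1.22 without WT 1. The receptor subunits Il17ra and Il1r1 had -0.05 ± 0.13 and 0.23 ± 0.10. Beside Tnf, those at an unadjusted p under 0.05 were receptor genes, named after their values were seen. They were Osmr (-0.46 ± 0.10, adjusted p = 0.0872 in limma), Il17re (0.33 ± 0.10, 0.185) and Il6ra (0.50 ± 0.15, 0.210).

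Of 18 transcriptional regulators 1 rose and 0 fell (2.18% of all genes passed), with 4 at an unadjusted p under 0.05 (12.2% of all genes) and a median of 0.11. Nfkbiz, the NF-kappaB cofactor that interleukin 17 uses to induce defensins and lipocalin 2, rose from 1.67, 1.13 and 1.3 to 2.22, 2.20 and 2.42. Its log2 fold change was 0.91 ± 0.17 with an adjusted p of 0.0484 (limma), just inside the threshold. The paired fit ended the call (0.0508), as did median scaling (0.0617) and quantile normalization (0.063), and over the alternatives the range was 0.0279 to 0.171. Leaving out any 1 array except WT 1 also ended it. Nod2, the receptor for a bacterial cell wall fragment, chosen after its values were seen, had 1.29 ± 0.31 (adjusted p = 0.117 in limma; 0.0504 to 0.344 over the alternatives), higher on every AhRCA array than on any WT array. The acute-phase factors Cebpb and Cebpd had 0.12 ± 0.21 and 0.42 ± 0.13, and Stat3 -0.02 ± 0.17; none passed.

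**Figure D4:**
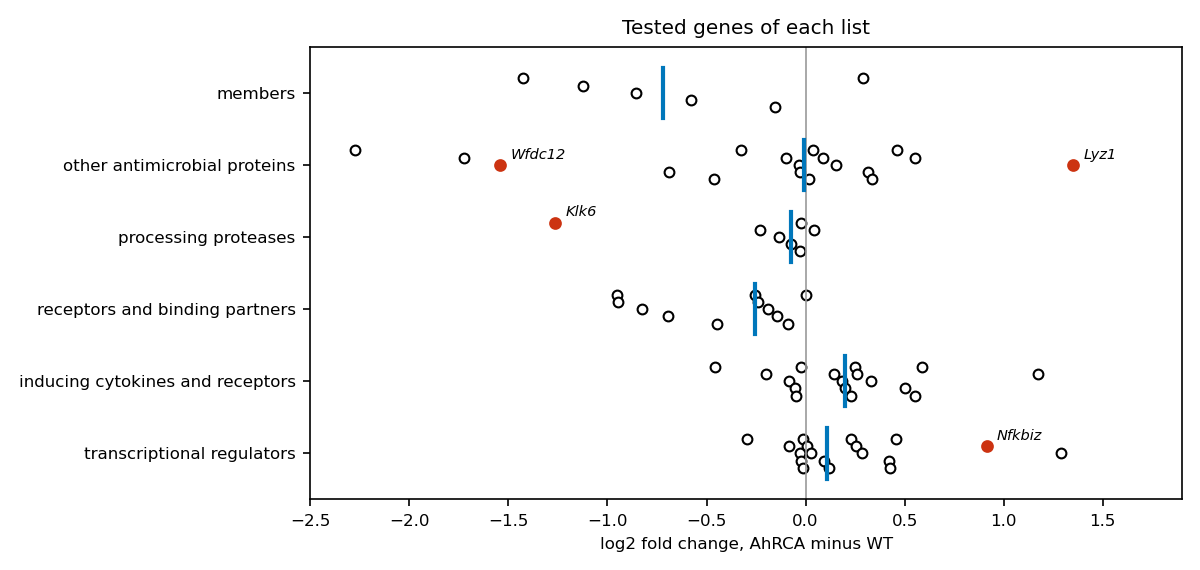
Log2 fold change (AhRCA minus WT) of each tested gene of the 10 members and of 5 lists around them; filled red points passed an adjusted p under 0.05, blue bars are list medians, and the grey line is the median of all genes tested. Lyz1 and Nfkbiz are the filled points above 0.

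Next to the members on the chromosome, the 3 nearest protein-coding genes on each side were read as well. Pglyrp3 neighbours Lor, the cornified envelope protein loricrin, with 0.05 ± 0.10, and Prr9, a proline-rich gene of the same complex, chosen after its values were seen, with -1.6 ± 0.36 (adjusted p = 0.0917, limma, and 0.0184 in the paired fit; 0.0184 to 0.283 over the alternatives). Beside Slpi, Rbpjl, a transcription factor gene, had pair differences of -0.92, -0.96 and -1.54 (adjusted p = 0.809, limma, and 0.0362 in the paired fit), and Matn4 and Sdc4 had -0.51 ± 0.35 and -0.08 ± 0.18. Near Camp, Spink8, a protease inhibitor gene, was above background on all 3 WT arrays and no AhRCA array, and so at least 2.11-fold higher in WT (adjusted p = 0.0781, limma, and 0.0677 in the paired fit). Rbpjl and Spink8 were chosen after their values were seen. The other tested neighbours of Camp had log2 fold changes from -0.29 (Map4) to 0.04 (Dhx30). Defb14 and Defb6 lie in the same defensin cluster as Defb3, which had 0.09 ± 0.28, and Defb5, which was not well above background. The genes beside Lcn2 that could be tested, Ciz1, 1110008P14Rik, Ptges2 and Slc25a25, had log2 fold changes between -0.08 and 0.02.

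By the brightest probe of each gene, Defb14 had the largest change among members measured on all 6 arrays, and the 3 genes whose pattern over the 6 arrays was nearest to it were Adam8, Crb2 and Dpysl3. The measure was the root mean square difference of log2 values centred on each gene's mean, which was 0.175, 0.189 and 0.201. Their log2 fold changes were -1.25 ± 0.16, -1.3 ± 0.15 and -0.98 ± 0.15.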

How the data were processed

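The deposited scanner files of the 6 arrays hold intensity values per spot, made with Feature Extraction 10.7.3.1 per the file headers, after background correction and without scaling between arrays. Values were log2 processed intensity minus the log2 75th percentile of the non-control spots of the array. The authors' deposited table of log2 values had column medians from -0.0705 (WT 1), -0.0495 (WT 2) and 0.0827 (WT 3) to 0.0283, 0.0638 and -0.071 in AhRCA 1, 2 and 3. Its differences between arrays matched those of the scanner values with a slope of 1, which gives scale and direction, and its probes are centred on their medians. It served as an alternative.

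Of 41174 probes, 26690 were named through unversioned RefSeq accessions of GRCm38.p6. A probe was kept if 3 or more of the 6 arrays had it well above background (24005 were), outlier spots were left out, and the brightest probe stood for its gene, which left 12824 genes. Genotypes were compared with limma 3.58.1 in R 4.3.3 (lmFit, eBayes, two-sided, Benjamini-Hochberg, threshold 0.05), tested on simulated data first. A bound uses, for the dim group, the higher of each array's lowest above-background value and the probe's own. Litter pairs were taken from the replicate numbers in the sample labels. Same-numbered arrays deviated together (r = 0.337, 0.372 and 0.55 across 12821 genes), so blocked values are given where they change a call. WT and AhRCA arrays of different number had r of 0.194 and 0.15 within slide 1 and of -0.416 to -0.356 between slides. For pair 3 the litter cannot be told apart from slide and sex in these values. The mice are separate animals.

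The members and lists were chosen with earlier results of these data known. Named are all members, up to 4 called genes of each list or else the 2 with the largest change, Cyp1a1 and Cyp1b1, and the nearest patterns. Cell type markers lay outside this rule, and those that passed with or without the block were named after their values were seen. Other genes outside it are marked as chosen after their values were seen, or are given as non-passing members of a list or as neighbours. The 5 lists had 32, 13, 19, 26 and 22 entries, of which 28, 12, 18, 22 and 19 were named on the array. Lists of mast cell, adipocyte, skeletal muscle and erythroid markers, with 1, 3, 3 and 4 tested genes, had 0 calls with limma and 0, 1, 1 and 1 at an unadjusted p under 0.05. Markers of neutrophils (5 tested), endothelium (1), fibroblasts (7) and differentiated keratinocytes (10) also had 0 calls with limma, and 0, 0, 2 and 0 at an unadjusted p under 0.05; the paired fit changed 6 marker calls, given in the text. Normexp used the median spot signal in place of the planned mean signal, which was not used here. Alternatives were other scalings, background corrections, filters, probe rules, blocks and left-out arrays.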

Additional observations from a re-analysis of the deposited data

How the results depend on the processing

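Over all genes 279 passed; the count was 497 with the litter pair as a replicate block, 539 with the slide as a block, 130 on slide 1 alone, 132 with no filter on dim probes, and 62 to 195 when 1 array was left out. Of the members 0 passed in the main setting and 2 (Defb14 and Pglyrp3) with the litter pair as a replicate block, which changed no other member's call; no other setting called a member. The 5 lists had 4 calls, 7 with the slide as a block, 1 on slide 1 alone, 1 with no filter on dim probes, and 1 to 2 with 1 array left out. The sign of Defb1 turned on slide 1 alone (0.174), without WT 3 (0.0273) and without AhRCA 2 (0.0425), where leaving out 1 array gave -0.501 to 0.0425. Defb14, Saa1 and Pglyrp3 stayed negative and Slpi positive under all 16 alternatives, and Defb6 stayed negative under the 15 that could give a value; the filter on all 6 arrays removes it. Bounds for Lcn2 and Saa3, planned also with any probe, are not given, as WT was above background on 1 and 2 of 3 arrays. Signal over background limits both, and no fold is given for Camp and Pglyrp1, not well above background on any array. Over the fold changes followed through the settings, 346 values kept their direction and side of the threshold, 14 newly passed, 25 no longer passed and 3 turned. These cover the members except Camp and Pglyrp1, and the called or largest genes of the 5 lists. They also cover Saa2, S100a7a, Nod2, Prr9 and the AhR targets Cyp1a1, Cyp1b1, Ahrr and Nqo1. The other genes named in the text, cell type markers among them, were not part of this count.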
